A study of Mus musculus with 23 samples.

Results

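The nuclear genes of the mitochondrial respiratory chain were examined together with Ecsit, an assembly factor of the first enzyme of that chain, in cultured mouse aortic endothelial cells kept in plasma of 4 kinds of mice. Members were all genes whose symbol was Ecsit or began with Nduf, Sdh followed by a, b, c or d, Uqcr, Cox followed by 4 to 8, or Atp5, with case as in the mouse symbols. The rule itself uses no measured value, but it was chosen with earlier results of these data known, and it takes in Ecsit by name. It found 94 of the 24704 named genes. They were 6 core and 28 accessory subunits of complex I, 9 complex I assembly factors with Ecsit, 8 genes of complex II, 7 of complex III, 19 of complex IV, 13 of complex V and 4 annotated pseudogenes. Ndufa4, which is found with complex IV in spite of its name, and its paralog Ndufa4l2 were placed with complex IV. The 13 chain genes that mitochondria encode themselves were not analysed here.

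All arrays held RNA of primary aortic endothelial cells of strain C57BL/6J, grown to confluence and then given 10% plasma in place of serum for 48 h. The plasma came from wildtype mice (6 arrays) or from ApoE-KO mice (5 arrays), which lack apolipoprotein E. Plasma of ApoE-Stab1-KO mice (6 arrays) and of ApoE-Stab2-KO mice (6 arrays) came, by the label, from animals with that knockout together with one of the scavenger receptor stabilin-1 or stabilin-2. The cells themselves carried no knockout by their labels. The donors of the 3 knockout plasmas had been on a Western diet for 8 weeks, while the labels name no diet for the wildtype donors. In the 3 comparisons with wildtype plasma, genotype and diet therefore cannot be told apart. The labels do not say whether the replicates were separate cultures or plasma of separate mice, so a p-value here reflects only how far these arrays scatter, which may be technical.

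The respiratory chain passes electrons from nutrients to oxygen and uses their energy to pump protons across the inner mitochondrial membrane. Complex I takes electrons from NADH and complex II from succinate, ubiquinone carries them to complex III, cytochrome c carries them on to complex IV, and complex V makes ATP from the proton gradient. Aortic endothelial cells draw much of their ATP from glycolysis, and in them the chain is also known as a source of signalling oxidants. Ecsit has a place both in complex I assembly, within a complex with Ndufaf1, Acad9 and Tmem126b, and in Toll-like receptor and bone morphogenetic protein signalling.

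Values are deposited log2 intensities between 2.52 and 13.9, with a median of 4.33 over all probe sets and arrays, and 81 members lay above that median. Any 2 arrays correlated at r = 0.992 to 0.997 across the named genes, and no pair held identical values. All 12 endothelial markers lay above the median value, with a mean over the markers of 11.0 to 11.2 on every array, so the labelled cell type had its defining transcripts. Markers of other cell types were partly above the median value: 3 of 6 of smooth muscle (Smtn at 10.28, Des at 5.16 and Acta2 at 5.06, with Myh11 at 4.07), 2 of 5 of fibroblasts (Pdgfra at 6.11 and Col1a1 at 5.14, with Dcn at 3.01), 1 of 4 of leukocytes (Cd68 at 11.2, with Ptprc at 2.98) and 3 of 4 of lymphatic endothelium (Lyve1 at 12.7, with Prox1 below it at 3.27). For blood and platelets, 2 of 4 lay above the median value (Pf4 at 6.01 and Itga2b at 4.79), with Hbb-bs at 2.98 and Hbb-bt at 2.69 below it. Of the endothelial markers, 2 were called lower with ApoE-KO than with wildtype plasma and 1 with ApoE-Stab1-KO plasma (limma, adjusted p under 0.05). In these comparisons 0.53% and 0.364% of all genes were called. In the other 4 comparisons 0 markers were called, each with 1 to 4 at an unadjusted p under 0.05. The part of this in the results was not tested. The arrays share nearly 1 distribution of values, so each difference is relative to the other genes of the array. In RNA of whole cultures, fewer cells of a kind and less RNA per cell cannot be told apart.

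Ecsit was the only member called in the limma test that compared all 4 groups at once (F-test, adjusted p = 0.0101), where 0.546% of all genes were called. Its log2 values ran from 5.52 over a median of 5.67 to 5.78 with wildtype plasma and were 5.47, 5.67, 5.51, 5.54 and 5.66 with ApoE-KO plasma. They ran from 5.17 over 5.36 to 5.54 with ApoE-Stab1-KO plasma and from 5.70 over 5.87 to 6.14 with ApoE-Stab2-KO plasma. Every ApoE-Stab2-KO array lay above every ApoE-Stab1-KO and every ApoE-KO array, while the wildtype arrays overlapped each of the other groups.

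Between the 2 stabilin knockouts Ecsit rose by 0.53 ± 0.08 (difference ± SE, n = 6 and 6) from ApoE-Stab1-KO to ApoE-Stab2-KO plasma, a 1.44-fold difference with a 95% interval of 0.36 to 0.70 on the log2 scale and an adjusted p of 0.00554 (limma). Of all genes, 0.0486% were called in this comparison. The call was made in each of the 23 fits that left out 1 array, with differences of 0.48 to 0.57 and adjusted p of 0.00425 to 0.0284. It ended when only the 12 arrays of these groups were fitted (adjusted p = 0.0963, same difference). That fit takes the spread from fewer arrays and from these groups alone. The SD of Ecsit was 0.16 with ApoE-Stab1-KO and 0.20 with ApoE-Stab2-KO plasma, against 0.09 with wildtype and 0.09 with ApoE-KO plasma. Why the call ended was not tested.

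In order of mean level, Ecsit stood at 5.89 ± 0.20 (SD, n = 6) with ApoE-Stab2-KO, 5.66 ± 0.09 (n = 6) with wildtype, 5.57 ± 0.09 (n = 5) with ApoE-KO and 5.36 ± 0.16 (n = 6) with ApoE-Stab1-KO plasma. No neighbours in this order were separated by the test, nor were any other groups than the outer ones. ApoE-Stab2-KO minus ApoE-KO was 0.32 ± 0.09 (adjusted p = 0.255, limma) and ApoE-Stab1-KO minus ApoE-KO was -0.21 ± 0.09 (adjusted p = 0.861). Against wildtype plasma, the differences were 0.23 ± 0.08 for ApoE-Stab2-KO (adjusted p = 0.388), -0.30 ± 0.08 for ApoE-Stab1-KO (adjusted p = 0.118) and -0.09 ± 0.09 for ApoE-KO (adjusted p = 0.798). These comparisons share arrays and are not independent of each other.

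**Figure D1:**
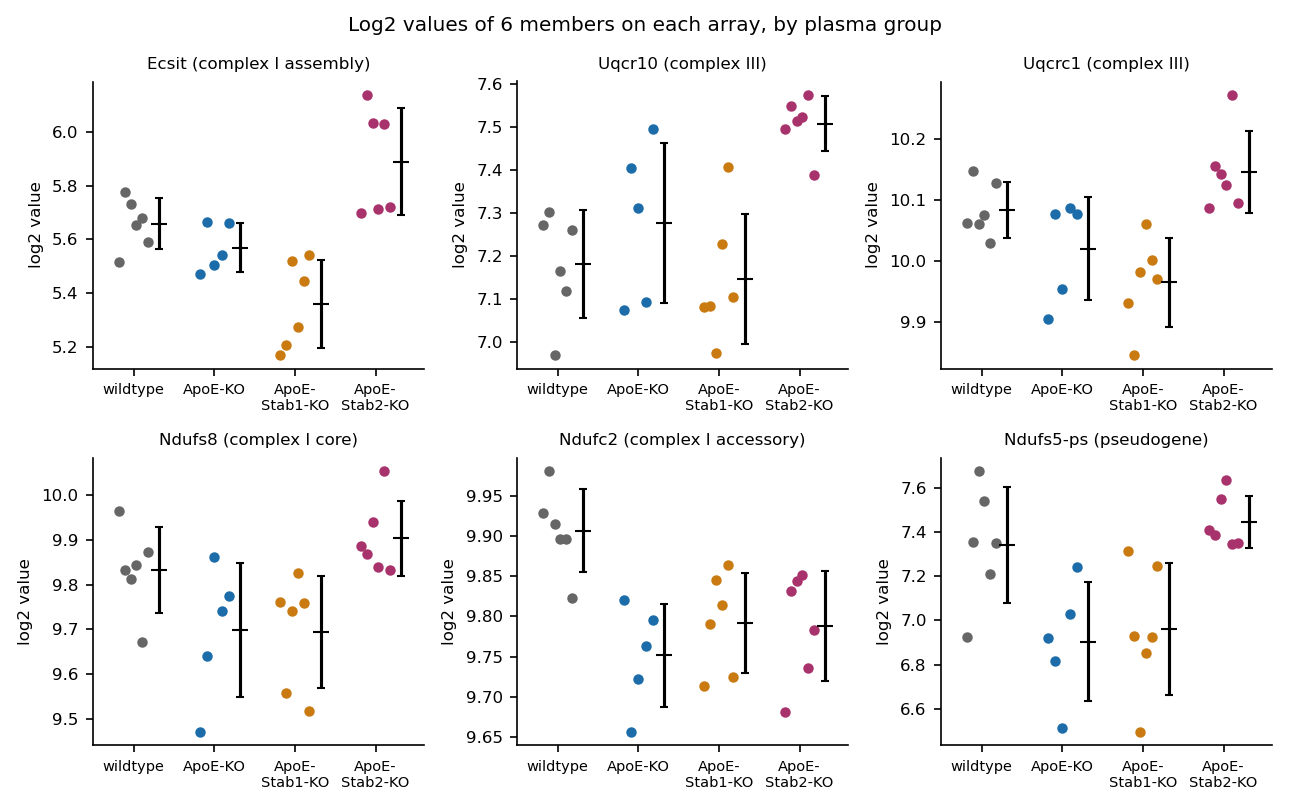
Log2 values (vertical axis) of 6 members on each of the 23 arrays, by plasma group; points are arrays and the black bars give the mean ± SD. In Ecsit, the ApoE-Stab2-KO arrays (5.70 to 6.14) lie above the ApoE-Stab1-KO arrays (5.17 to 5.54), and in Uqcr10 they lie above the wildtype arrays; the vertical axes differ between panels and do not start at 0.

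The promoter of Ecsit is shown because this gene carried the one call among the members, and that of Uqcr10, the member with the next smallest F-test p, for comparison. Promoter sequence came from RefSeq on GRCm38.p6, in windows of 300 bases that hold 250 bases before and 50 after an annotated transcript start, and 75 of the 94 members matched a window (80 windows, since 5 genes had several). The windows were searched on both strands for the GABPA letters CCGGAAG, the core CGCATGCG of the NRF1 motif, the YY1 letters AAGATGGC and the ESRRA letters TCAAGGTCA, which belong to transcription factors known for acting on nuclear genes of the chain. Capitals mark a match. The first 255 bases of the windows, written 5′ to 3′ in the direction of the gene, were at chr9:22085423-22085677 on the minus strand for Ecsit and at chr11:4704340-4704594 on the minus strand for Uqcr10.
Ecsit: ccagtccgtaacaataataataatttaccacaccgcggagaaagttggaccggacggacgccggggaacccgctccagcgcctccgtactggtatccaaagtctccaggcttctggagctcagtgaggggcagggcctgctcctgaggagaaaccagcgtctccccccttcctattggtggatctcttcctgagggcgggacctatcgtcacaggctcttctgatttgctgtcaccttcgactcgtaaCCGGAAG
Uqcr10: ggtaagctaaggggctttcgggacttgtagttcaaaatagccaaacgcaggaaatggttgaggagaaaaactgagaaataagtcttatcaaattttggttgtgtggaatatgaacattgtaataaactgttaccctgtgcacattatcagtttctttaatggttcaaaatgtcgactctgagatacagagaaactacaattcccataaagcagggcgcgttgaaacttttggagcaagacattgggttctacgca
The Ecsit window held the GABPA letters at bases 249 to 255, across the transcript start, and no other of the searched letters. The Uqcr10 window held none of them, which says only that these letters are not in this window.

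Over the members' 80 windows, 27.5% held the GABPA letters, against 8.858% of all 32851 windows of this length. The NRF1 core stood in 11.25% against 1.872%, the YY1 letters in 12.5% against 2.749%, and the ESRRA letters, found with Atp5g3 and Sdhd, in 2.5% against 0.4231%. At least 1 of the searched sets of letters stood in the windows of 36 member genes and in none of the windows of 39. By window, the share was 45% of the members' windows against 13.03% of all windows. A match is a description of the sequence. Further examples are 30 bases around the NRF1 core of Uqcrc1 (chr9:108936668-108936697, plus strand), around the GABPA letters of Ndufs8 as read on the opposite strand (chr19:3912742-3912771, minus strand) and around the YY1 letters of Ndufaf8 (chr11:120098933-120098962, plus strand).
Uqcrc1: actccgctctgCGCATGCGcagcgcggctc
Ndufs8: cttaggctccgcCTTCCGGttgaaccgcat
Ndufaf8: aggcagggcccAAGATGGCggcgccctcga
Members with and without the motifs are both found among those with the smallest p below: Ecsit, Uqcrc1 and Ndufs8 had a match and Uqcr10 had none.

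Among the 6 core subunits of complex I, which belong to its matrix arm, 0 were called in any comparison (limma). With ApoE-Stab2-KO against ApoE-Stab1-KO plasma, 2 were higher and 0 lower at an unadjusted p under 0.05, beside 5.2% and 5.78% of all genes. Ndufs8, an iron-sulphur subunit near the ubiquinone site, ran from 9.83 over 9.88 to 10.05 with ApoE-Stab2-KO and from 9.52 over 9.75 to 9.83 with ApoE-Stab1-KO plasma. The highest ApoE-Stab1-KO array stayed just below the lowest ApoE-Stab2-KO array, and the difference was 0.21 ± 0.07 (adjusted p = 0.207). With wildtype plasma Ndufs8 ran from 9.67 over 9.84 to 9.96, across both, and with ApoE-KO plasma it was 9.47, 9.64, 9.86, 9.74 and 9.78. Ndufv2, which holds an iron-sulphur cluster of the NADH-oxidising module, differed by 0.18 ± 0.06 in the same comparison (adjusted p = 0.236), with ranges of 9.04 to 9.24 and 8.72 to 9.09 that overlapped. Ndufs7, which carries the last cluster before ubiquinone, lay at means of 9.65 to 9.72 in the 4 groups and differed by at most 0.08 ± 0.06 between any of them.

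Of the 28 accessory subunits of complex I, which surround and stabilise the core, 0 were called in any comparison. At an unadjusted p under 0.05, 4 were higher and 0 lower with ApoE-Stab2-KO than with ApoE-Stab1-KO plasma, beside 5.2% and 5.78% of all genes. The median difference over the 28 was 0.03. Ndufc2, a subunit of the membrane arm, ran from 9.82 over 9.91 to 9.98 with wildtype plasma and was 9.82, 9.66, 9.72, 9.76 and 9.79 with ApoE-KO plasma. All ApoE-KO arrays lay below the wildtype arrays, the nearest pair only just, by a mean of 0.15 ± 0.04 (adjusted p = 0.135), and the difference from wildtype was -0.11 ± 0.04 with ApoE-Stab1-KO and -0.12 ± 0.04 with ApoE-Stab2-KO plasma. The 3 plasma groups with a knockout thus lay alongside each other in Ndufc2, at means of 9.75, 9.79 and 9.79, unlike in Ecsit.

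Ndufb7, on the intermembrane side of the membrane arm, ran from 7.33 over 7.46 to 7.48 with wildtype and from 7.06 over 7.22 to 7.35 with ApoE-Stab1-KO plasma, a difference of -0.22 ± 0.07 (adjusted p = 0.193). It was 7.30, 6.90, 7.19, 7.42 and 7.32 with ApoE-KO plasma and ran from 7.20 over 7.35 to 7.54 with ApoE-Stab2-KO plasma, so all groups overlapped. Ndufa6, an accessory subunit of the matrix arm, was the accessory subunit with the smallest p between the stabilin knockouts, at 0.12 ± 0.04 (adjusted p = 0.248). Ndufb11 and Ndufa7, picked after their values were seen, had the larger differences of 0.43 ± 0.16 (adjusted p = 0.301) and 0.40 ± 0.14 (adjusted p = 0.274). Their ApoE-Stab1-KO arrays were widely spread, from 6.81 to 7.96 in Ndufb11 and from 6.43 to 7.61 in Ndufa7, against 7.70 to 8.10 and 7.19 to 7.62 with ApoE-Stab2-KO plasma.

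The other 8 complex I assembly factors, Ndufaf1 to Ndufaf8, gave 0 calls (limma). Besides Ecsit, 0 factors had an unadjusted p under 0.05 between the stabilin knockouts, and over all 9 the median difference was 0.02, with -0.12 at the low end. Ndufaf5, which hydroxylates a core subunit during assembly, lay at 4.71 ± 0.15 with wildtype and 4.88 ± 0.09 with ApoE-Stab2-KO plasma, a difference of 0.17 ± 0.08 (adjusted p = 0.581). Ndufaf8, which stabilises Ndufaf5, lay at 7.84 ± 0.16 with wildtype and 7.65 ± 0.13 with ApoE-KO plasma, a difference of -0.19 ± 0.10 (adjusted p = 0.54). Outside the symbol rule, 9 of 10 listed further assembly factors of complex I were measured and 0 were called, with 0 at an unadjusted p under 0.05 between the stabilin knockouts. Among them Tmem126b, a partner of Ecsit in complex I assembly, had the smallest F-test p and lay in the opposite order, at 6.83 ± 0.22 with ApoE-Stab1-KO and 6.71 ± 0.07 with ApoE-Stab2-KO plasma (-0.12 ± 0.10, adjusted p = 0.701).

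Complex II, succinate dehydrogenase, had 0 of 8 genes called. Sdhaf4, which helps to mature the catalytic subunit, was 5.06, 5.01, 5.01, 5.26 and 5.11 with ApoE-KO plasma and ran from 5.14 over 5.33 to 5.48 with ApoE-Stab2-KO plasma, overlapping in 1 ApoE-KO array (0.24 ± 0.09, adjusted p = 0.435). Sdhb, the iron-sulphur subunit, lay at 8.53 ± 0.07 with wildtype and 8.42 ± 0.10 with ApoE-Stab1-KO plasma (-0.11 ± 0.05, adjusted p = 0.379). Sdhaf2, which adds the flavin to the catalytic subunit, had means of 7.94 to 8.05 in the 4 groups. Between the stabilin knockouts 3 of the 8 genes were higher with ApoE-Stab2-KO plasma and the median difference was -0.01, with none past an unadjusted p of 0.05.

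Complex III, the cytochrome bc1 complex, held the members nearest to Ecsit in their F-test p among the protein-coding genes. Uqcr10, a small subunit that stands beside the iron-sulphur protein, ran from 7.39 over 7.52 to 7.58 with ApoE-Stab2-KO plasma and from 6.97 over 7.21 to 7.30 with wildtype plasma. It was 7.08, 7.40, 7.31, 7.09 and 7.49 with ApoE-KO plasma and ran from 6.97 over 7.09 to 7.41 with ApoE-Stab1-KO plasma. The ApoE-Stab2-KO arrays were thus above all wildtype arrays and overlapped 2 ApoE-KO arrays and 1 ApoE-Stab1-KO array.

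The F-test of Uqcr10 missed the threshold (adjusted p = 0.0554), as did its difference of 0.36 ± 0.08 between the stabilin knockouts (1.28-fold, 95% interval 0.20 to 0.52, adjusted p = 0.0681) and that of 0.33 ± 0.08 between ApoE-Stab2-KO and wildtype plasma (adjusted p = 0.104). It was called between the stabilin knockouts in the fit without ApoE-Stab1-KO replicate 5 (0.41, adjusted p = 0.0312) and against wildtype when only those 12 arrays were fitted (adjusted p = 0.0355). The number of members called by the F-test, 1 with all arrays, was 2 without ApoE-KO replicate 1, without ApoE-Stab1-KO replicate 1 or 5 and without wildtype replicate 1, and 3 without ApoE-KO replicate 5. The genes added there were Uqcr10 or the pseudogene Ndufs5-ps, or both.

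Uqcrc1, a core protein of complex III, ran from 10.09 over 10.13 to 10.27 with ApoE-Stab2-KO and from 9.85 over 9.98 to 10.06 with ApoE-Stab1-KO plasma. These groups did not overlap, and the difference was 0.18 ± 0.04 (adjusted p = 0.108). With wildtype plasma it ran from 10.03 over 10.07 to 10.15, overlapping both, and with ApoE-KO plasma it was 9.91, 10.08, 9.96, 10.09 and 10.08. Uqcrq, a small subunit next to a ubiquinone site, differed by 0.16 ± 0.07 between the stabilin knockouts (adjusted p = 0.36) and by -0.17 ± 0.07 between ApoE-Stab1-KO and wildtype plasma (adjusted p = 0.293). Over the 7 genes the differences between the stabilin knockouts ran from -0.10 to 0.36 with a median of 0.15. At an unadjusted p under 0.05, 3 were higher and 0 lower with ApoE-Stab2-KO plasma, beside 5.2% and 5.78% of all genes.

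Complex IV, cytochrome c oxidase, is built with isoforms that differ between tissues, and its 19 genes gave 0 calls (limma). Between the stabilin knockouts, 2 were higher and 1 lower at an unadjusted p under 0.05, beside 5.2% and 5.78% of all genes. Of the 8 isoforms and paralogs known mainly from other settings, 7 lay below the median value: Cox6a2 at 4.06, Cox7a1 at 3.88 and Cox8b at 3.36, which are known from heart and skeletal muscle, Cox6b2 at 4.03, Cox7b2 at 2.93 and Cox8c at 3.44, known from testis, and the hypoxia-induced Ndufa4l2 at 3.39. The remaining one, Cox4i2, known from lung and from oxygen sensing, lay at 4.48 and had means of 4.41 to 4.56 in the 4 groups. These levels are averages over all arrays, each of its own probe set, and are not set against each other. Cox8c was the only complex IV gene lower at an unadjusted p under 0.05 with ApoE-Stab2-KO than with ApoE-Stab1-KO plasma (-0.09 ± 0.04, adjusted p = 0.44).

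Cox6b1, the widely expressed counterpart of Cox6b2 on the intermembrane side, ran from 8.86 over 8.96 to 9.12 with ApoE-Stab2-KO and from 8.57 over 8.78 to 9.07 with ApoE-Stab1-KO plasma, and the groups overlapped (0.19 ± 0.08, adjusted p = 0.359). Cox5b, a zinc-binding subunit, lay below the median value at 3.72. It ran from 3.62 over 4.01 to 4.27 with ApoE-Stab2-KO plasma, against 3.61, 3.72, 3.56, 3.52 and 3.62 with ApoE-KO plasma, and the groups overlapped at their edges (0.35 ± 0.12, adjusted p = 0.416). The probe set named for its pseudogene Cox5b-ps lay well above the median value, at 10.27. Either probe set may read transcripts of the other gene, so the values of both are uncertain; their sequences were not compared.

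Complex V, ATP synthase, gave 0 calls among 13 genes (limma). Between the stabilin knockouts, 2 were higher and 0 lower at an unadjusted p under 0.05, beside 5.2% and 5.78% of all genes. Atp5e, the smallest subunit of the catalytic head, ran from 7.87 over 8.26 to 8.42 with wildtype and from 7.78 over 7.87 to 8.23 with ApoE-Stab1-KO plasma (-0.26 ± 0.10, adjusted p = 0.323), and Atp5md, a small membrane subunit, differed by -0.17 ± 0.08 in the same comparison (adjusted p = 0.4). The wildtype and ApoE-Stab1-KO arrays overlapped in both. Atp5g3, which codes for the subunit of the rotating membrane ring, differed by -0.12 ± 0.05 between ApoE-KO and wildtype plasma (adjusted p = 0.36). The precision was lowest for Atp5h, picked for its spread after the values were seen and below the median value at 4.06 ± 1.06 (SD, n = 6) with ApoE-Stab1-KO plasma, where the arrays ran from 3.27 to 6.02; its interval between the stabilin knockouts was -0.61 to 0.99.

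The 4 pseudogenes, all named after their values were seen, included the largest difference of any member, and their probe sets may read transcripts of the parent genes as well. Ndufs5-ps was 6.92, 6.82, 6.52, 7.03 and 7.24 with ApoE-KO plasma and ran from 7.35 over 7.40 to 7.64 with ApoE-Stab2-KO plasma. It ran from 6.50 over 6.93 to 7.32 with ApoE-Stab1-KO and from 6.92 over 7.35 to 7.67 with wildtype plasma. All ApoE-Stab2-KO arrays stood above those of ApoE-KO and ApoE-Stab1-KO and among those of wildtype. The differences were 0.54 ± 0.14 from ApoE-KO (adjusted p = 0.233) and 0.48 ± 0.13 from ApoE-Stab1-KO plasma (adjusted p = 0.145). Atp5l-ps1 was in the same order, at 0.26 ± 0.08 (adjusted p = 0.307) and 0.22 ± 0.07 (adjusted p = 0.258). Cox5b-ps had its largest difference from wildtype instead, 0.26 ± 0.10 with ApoE-Stab1-KO plasma (adjusted p = 0.304), and Atp5c1-ps, at 3.03 over all arrays, differed by at most 0.12 ± 0.09.

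Taken as a set, the members stood highest with ApoE-Stab2-KO plasma, by a small amount. The mean over the 94 members was 7.68 ± 0.02 (SD over 6 arrays) with ApoE-Stab2-KO, 7.64 ± 0.03 with wildtype, 7.62 ± 0.05 (5 arrays) with ApoE-KO and 7.62 ± 0.03 with ApoE-Stab1-KO plasma. It ran from 7.65 to 7.72 on the ApoE-Stab2-KO arrays and from 7.59 to 7.65 on the ApoE-Stab1-KO arrays, which did not overlap by a small margin, while the wildtype arrays reached 7.68 and the ApoE-KO arrays 7.66, into the range of the former. In each of the 7 classes other than the pseudogenes the mean was highest with ApoE-Stab2-KO plasma, and within each class the arrays of the stabilin knockouts overlapped. The complex I assembly class and the set of 94 both include Ecsit, which was taken in by name. Over the 9 genes of that class the median difference between the stabilin knockouts was 0.02.

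**Figure D2:**
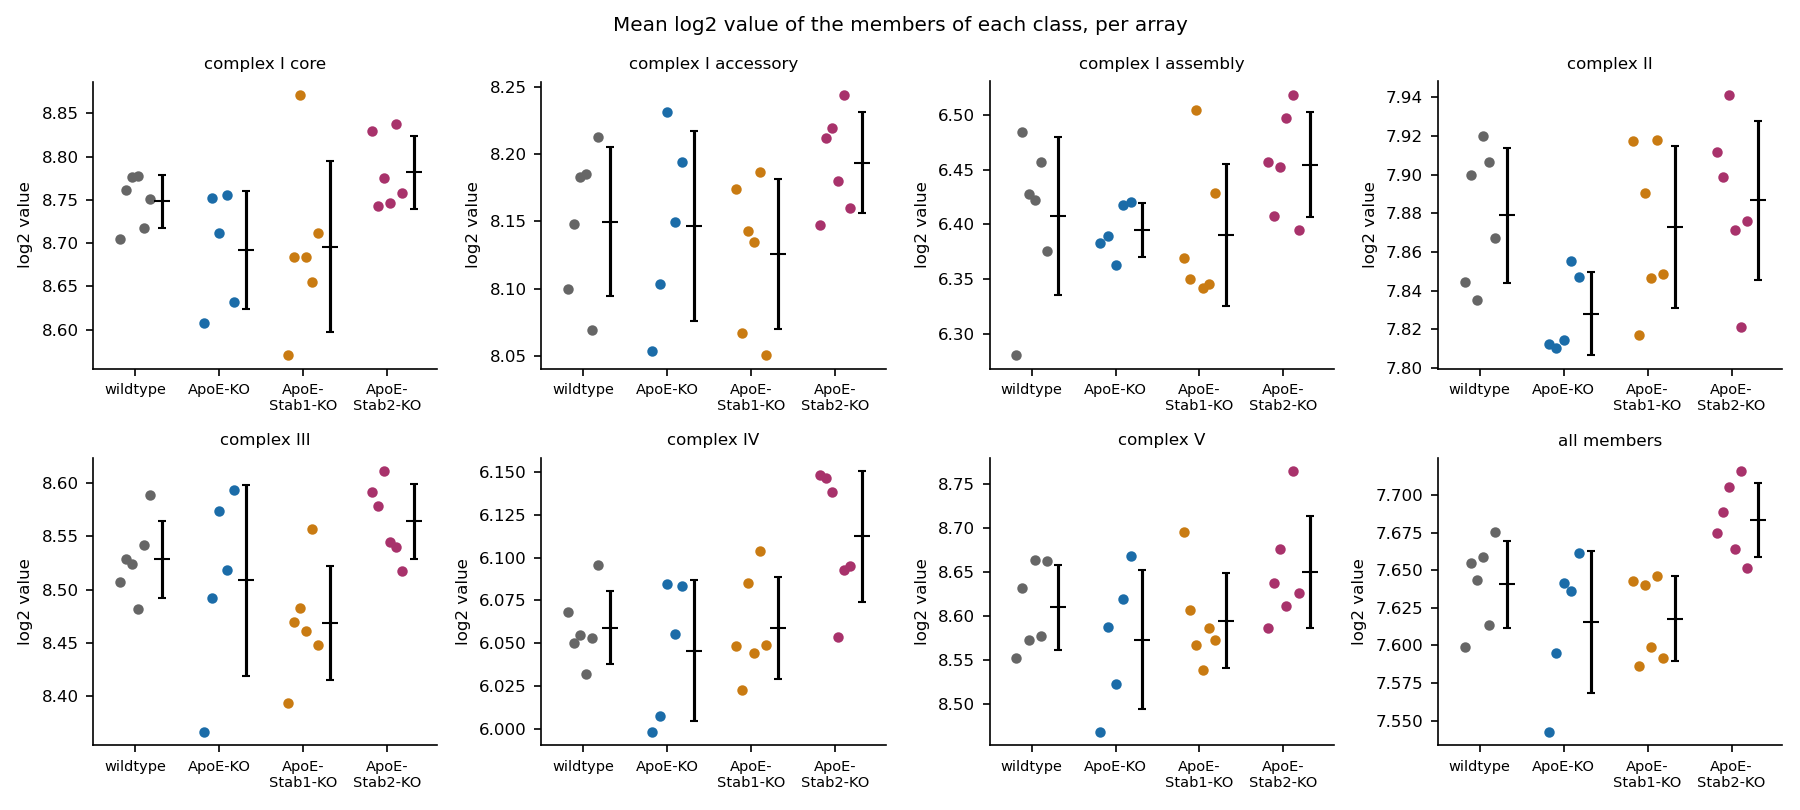
Mean log2 value over the members of each class (vertical axis) on each array, by plasma group; points are arrays, black bars the mean ± SD, and the last panel is the mean over all 94 members. In the last panel the ApoE-Stab2-KO arrays sit between 7.65 and 7.72, above the ApoE-Stab1-KO arrays and overlapping the wildtype arrays; the vertical axes do not start at 0.

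Between the stabilin knockouts, 62 of the 94 members were higher with ApoE-Stab2-KO plasma, 66.0%, against 48.0% of all genes, and the median difference was 0.04, against -0.00391 over all genes. At an unadjusted p under 0.05, 16 members (17.0%) were higher and 1 was lower, beside 5.2% and 5.78% of all genes. The share over all genes, here and elsewhere, was not matched for level. Of the members 81 lay above the median value, while all genes include a larger part near the low end of the scale. Apart from Ecsit, none of the 16 kept an adjusted p under 0.05. Without Ecsit, 61 of 93 members were higher (65.6%), with a median difference of 0.04. Of these 93 members, 15 were higher and 1 lower at an unadjusted p under 0.05. The differences ran from -0.13 to 0.53, and for 89 of the 94 members the 95% interval stayed within 1.5-fold in either direction.

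**Figure D3:**
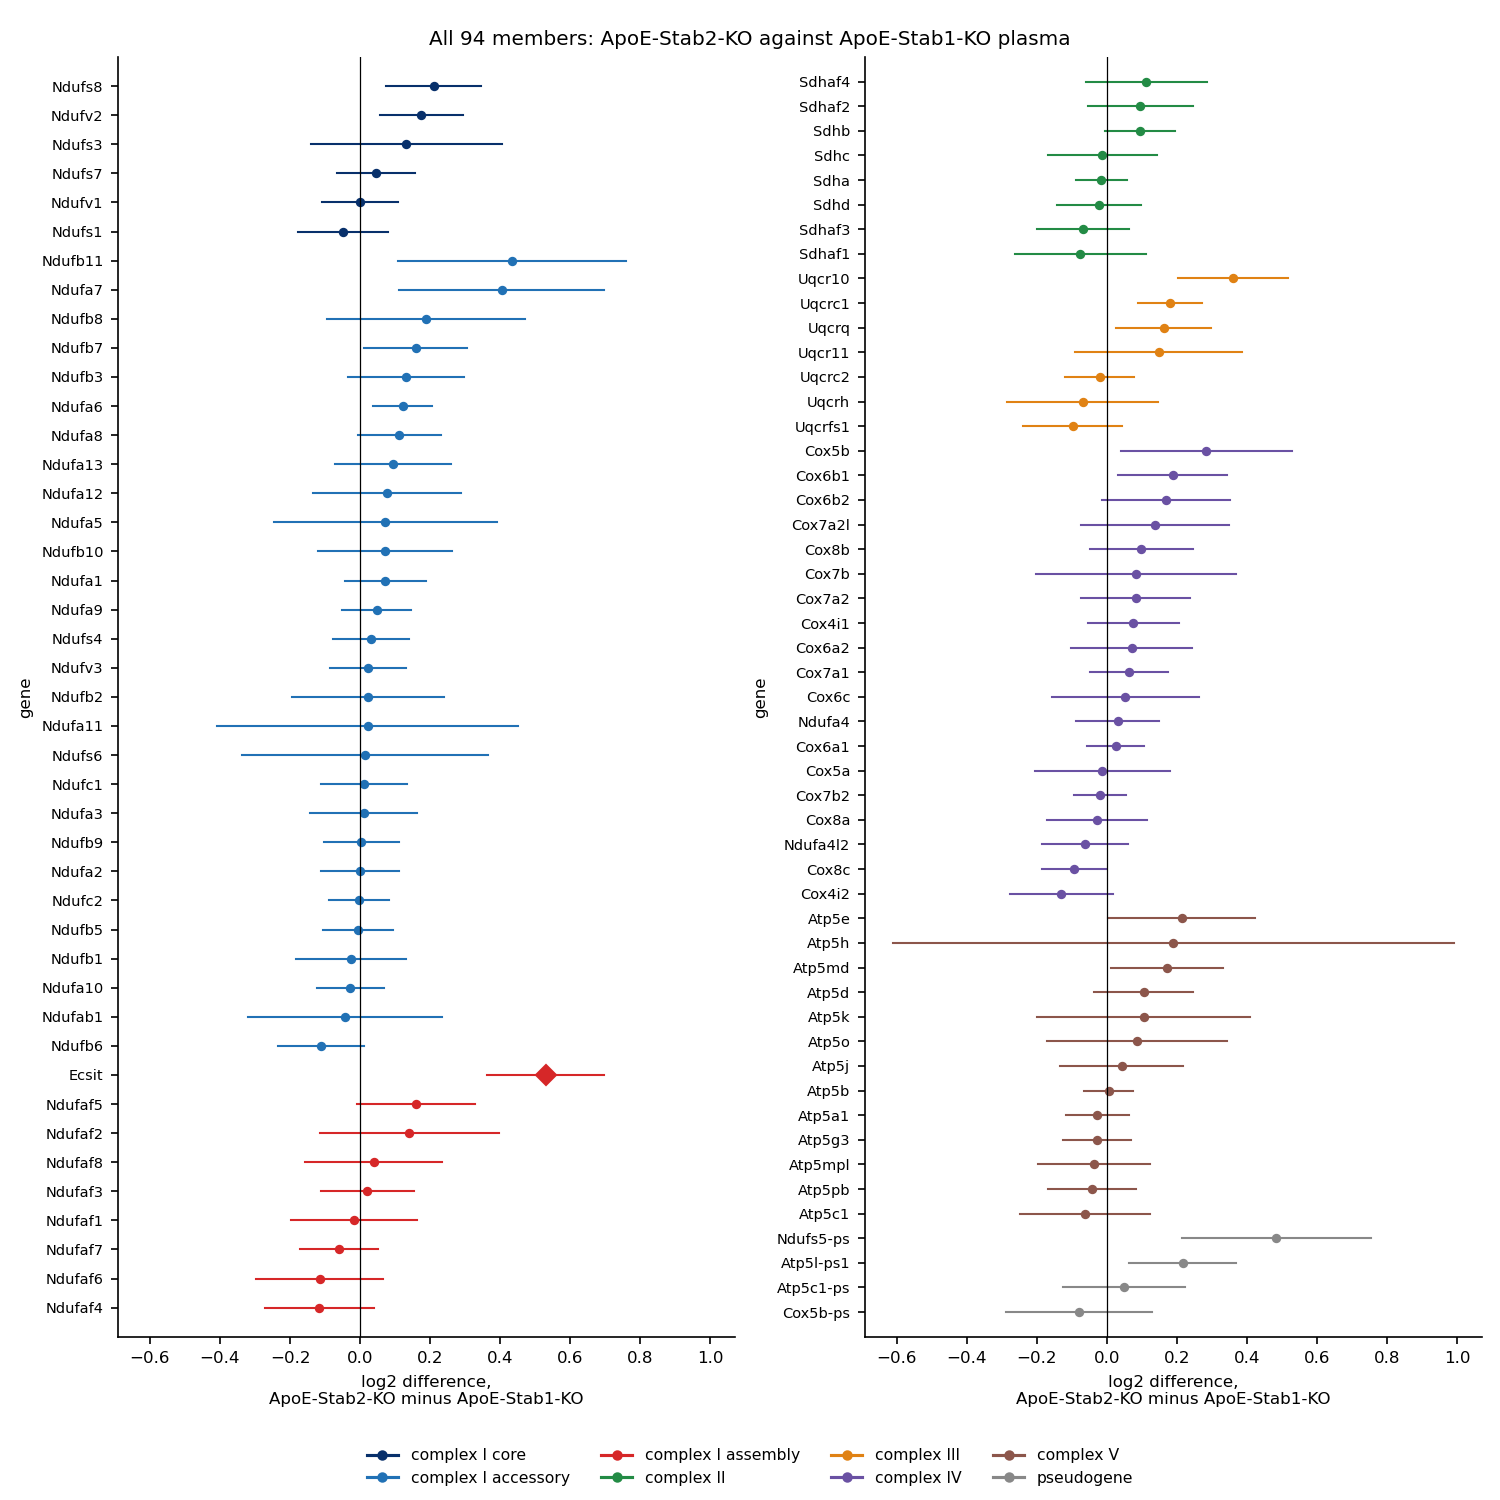
Log2 difference between ApoE-Stab2-KO and ApoE-Stab1-KO plasma (horizontal axis) for each of the 94 members, coloured by class; points are differences, lines their 95% intervals, and the diamond marks the member called at an adjusted p under 0.05 (limma). Ecsit lies at 0.53 with an interval of 0.36 to 0.70, and most of the other members lie within 0.2 of 0.

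Both other comparisons of ApoE-Stab2-KO plasma, which share its arrays, also had more than 60 members on the higher side. Against ApoE-KO plasma 71 members were higher (75.5%, against 48.1% of all genes), with a median difference of 0.05. At an unadjusted p under 0.05, 11 were higher and 1 lower, beside 3.94% and 4.42% of all genes, and 0 were called (limma, smallest adjusted p = 0.233), where 0.0243% of all genes were. Complex V showed the largest share, with 12 of 13 genes higher and a median difference of 0.07, though 0 of them had an unadjusted p under 0.05. The stabilin-1 knockout set beside ApoE-KO plasma gave 54 members higher (57.4%, against 50.2% of all genes), a median difference of 0.01 and a range of -0.21 to 0.26. There 1 member was higher and 2 were lower at an unadjusted p under 0.05, beside 2.83% and 2.74% of all genes, and 0 were called, where 0.00405% of all genes were.

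Against wildtype plasma 0 members were called in any of the 3 comparisons (limma), where 0.53% of all genes were with ApoE-KO, 0.364% with ApoE-Stab1-KO and 0.178% with ApoE-Stab2-KO plasma. At an unadjusted p under 0.05, ApoE-KO plasma had 2 members higher and 6 lower, beside 5.41% and 5.12% of all genes, with 36 of the 94 on the higher side (38.3%, against 51.2% of all genes) and a median of -0.02. ApoE-Stab1-KO plasma had 1 higher and 13 lower, beside 5.74% and 5.55% of all genes, with 47 on the higher side (against 51.8% of all genes) and a median of -0.00016. ApoE-Stab2-KO plasma had 8 higher and 2 lower, beside 4.27% and 4.22% of all genes, with 64 on the higher side (68.1%, against 49.0% of all genes) and a median of 0.02. At this unadjusted threshold more members were lower than higher with ApoE-KO and ApoE-Stab1-KO plasma, and more were higher with ApoE-Stab2-KO plasma. The 6 lower with ApoE-KO plasma were close to the share of all genes. With ApoE-Stab1-KO plasma 47 of the 94 were on the higher side. The mean over the members was 7.62 ± 0.03 (SD over arrays) there and 7.64 ± 0.03 with wildtype plasma, with overlapping ranges. The 3 comparisons share the wildtype arrays. The intervals of 91, 90 and 93 members stayed within 1.5-fold of wildtype with ApoE-KO, with ApoE-Stab1-KO and with ApoE-Stab2-KO plasma.

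**Figure D4:**
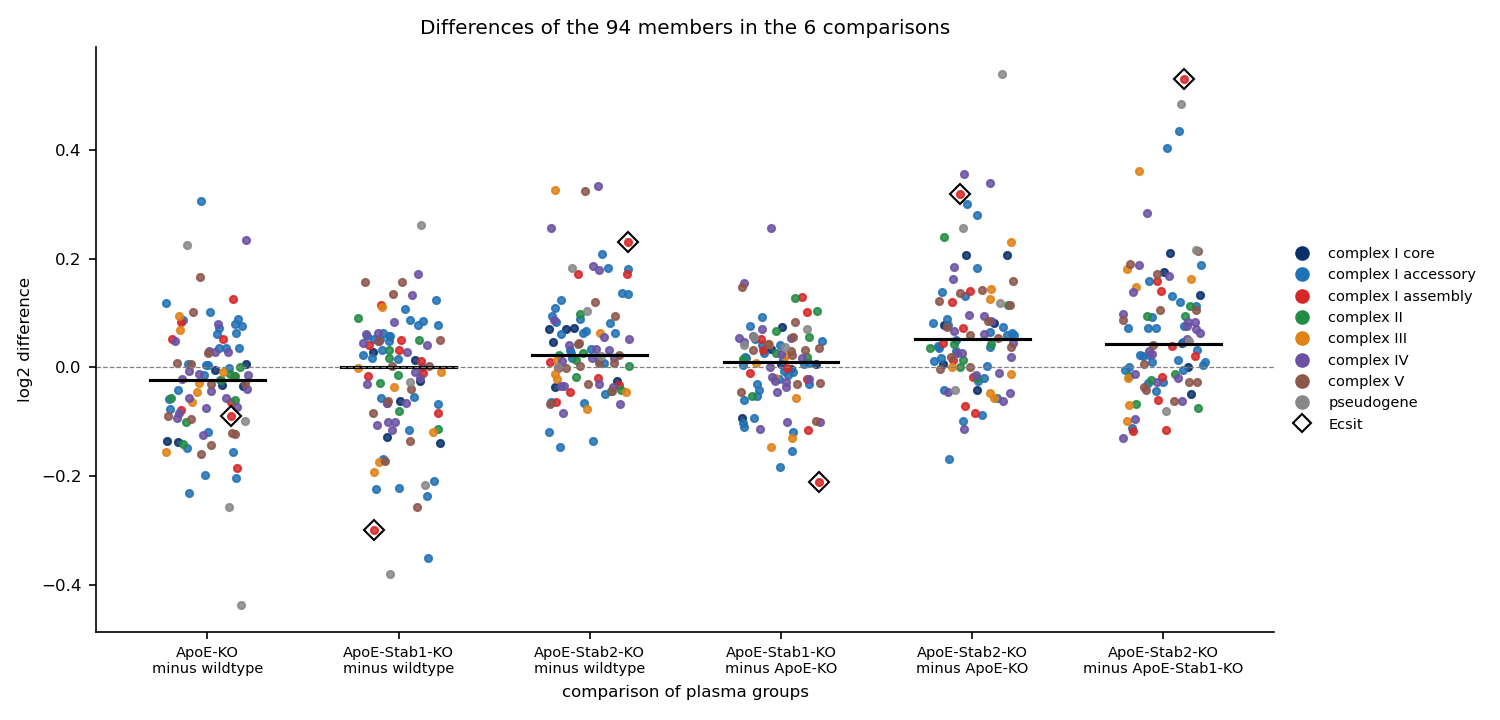
Log2 differences (vertical axis) of the 94 members in the 6 comparisons of plasma groups; each point is a member, coloured by class, horizontal lines are the medians over the members and open diamonds mark Ecsit. Ecsit runs from -0.30 (ApoE-Stab1-KO minus wildtype) to 0.53 (ApoE-Stab2-KO minus ApoE-Stab1-KO), and the medians lie between -0.02 and 0.05.

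Genes that work with the chain but fall outside the symbol rule were described from fixed lists and, for the mitochondrial ribosome, from a symbol pattern. The mitochondrial ribosome translates the chain subunits encoded in mitochondria. Its 78 genes were the measured ones whose symbol began with Mrpl or Mrps and a digit, and 0 were called. Between the stabilin knockouts, 13 were higher and 0 lower at an unadjusted p under 0.05, beside 5.2% and 5.78% of all genes. On the higher side were 60, against 48.0% of all genes, and the median difference was 0.06, against -0.00391 over all genes. The smallest F-test p among the ribosome genes was that of Mrps24, a protein of the small subunit. Mrps24 ran from 8.71 over 9.04 to 9.10 with ApoE-Stab2-KO and from 8.54 over 8.74 to 8.91 with ApoE-Stab1-KO plasma (0.27 ± 0.07, adjusted p = 0.108, limma). Without ApoE-Stab2-KO replicate 2 it was called (0.33, adjusted p = 0.0408). Of ubiquinone synthesis, 11 of 13 genes were measured and 0 were called. Between the stabilin knockouts 10 were on the higher side, against 48.0% of all genes, with a median of 0.08. Of these, 2 had an unadjusted p under 0.05, beside 5.2% of all genes. Coq2, which joins the head group to its tail, instead stood above wildtype with all 3 knockout plasmas, by 0.28 ± 0.08, 0.25 ± 0.08 and 0.30 ± 0.08 with ApoE-KO, with ApoE-Stab1-KO and with ApoE-Stab2-KO (adjusted p = 0.142, 0.181 and 0.13). Without wildtype replicate 4 its difference with ApoE-Stab2-KO plasma was called (0.36, adjusted p = 0.0463).

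Of the assembly factors of complexes III to V, 32 of 33 were measured and 0 called, with 6 higher and 0 lower at an unadjusted p under 0.05 between the stabilin knockouts, beside 5.2% and 5.78% of all genes. Cox11, which delivers copper to complex IV, had the smallest F-test p of these and differed by 0.33 ± 0.09 between ApoE-Stab1-KO and ApoE-KO plasma (adjusted p = 0.612). Of the subunits and carriers outside the rule, 7 of 9 were measured and 0 called. Between the stabilin knockouts 1 was higher and 0 lower at an unadjusted p under 0.05, beside 5.2% and 5.78% of all genes. The higher gene, cytochrome c (Cycs), the carrier between complexes III and IV, lay below the median value at 3.45 and differed by 0.24 ± 0.07 (adjusted p = 0.191). Of the tricarboxylic acid cycle, which feeds the chain, 17 of 18 genes were measured and 0 called. Between the stabilin knockouts 2 were higher and 3 lower at an unadjusted p under 0.05, beside 5.2% and 5.78% of all genes, with a median of -0.01. Pyruvate carboxylase (Pcx), which refills that cycle, differed by 0.30 ± 0.09 between ApoE-Stab2-KO and ApoE-KO plasma (adjusted p = 0.264). Of the regulators of mitochondrial biogenesis, 15 of 16 were measured and 0 called, with 0 at an unadjusted p under 0.05 between the stabilin knockouts, and Yy1, a transcription factor, lay 0.12 ± 0.04 below wildtype with ApoE-KO plasma (adjusted p = 0.164).

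Of the Toll and bone morphogenetic protein partners of Ecsit, 9 of 11 were measured and 1 was called, by the F-test and against wildtype plasma. By the F-test 0.546% of all genes were called. Against wildtype 0.53%, 0.364% and 0.178% were, with ApoE-KO, with ApoE-Stab1-KO and with ApoE-Stab2-KO plasma. Smad1, which carries bone morphogenetic protein signals to the nucleus, lay at 8.98 ± 0.08 with wildtype plasma and at 8.72 ± 0.10, 8.72 ± 0.05 and 8.73 ± 0.08 with ApoE-KO, with ApoE-Stab1-KO and with ApoE-Stab2-KO plasma. It fell by 0.25 ± 0.05, 0.26 ± 0.05 and 0.25 ± 0.05 on the log2 scale (adjusted p = 0.0195, 0.0135 and 0.0249, limma), and no array of these groups reached the wildtype range. Between the stabilin knockouts, where Ecsit was called, Smad1 differed by 0.01 ± 0.05 (adjusted p = 0.965). Its calls ended when only the arrays compared were fitted (adjusted p = 0.0871, 0.0712 and 0.0724). With ApoE-KO plasma the call also ended without ApoE-KO replicate 3 or 4 or wildtype replicate 1, and with ApoE-Stab2-KO plasma without its replicate 3, 5 or 6 or wildtype replicate 1, 2, 3 or 5, with adjusted p of 0.0529 to 0.0858 in these fits.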

How the data were processed

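RNA of 23 samples was measured on Affymetrix arrays as biotin-labelled cRNA, per the labels. The deposited values were made with RMA, per the submitters' processing notes, and are log2 intensities by their range; for its version, the sources used here give none. No depth exists for arrays, and their number limits the precision.

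Groups came from the labels. Of 25428 probe sets, 24705 had 1 symbol in the platform annotation and 723 had none; where a symbol stood on 2 probe sets the brighter was kept, which left 24704 genes. limma 3.58.1 in R 4.3.3 fitted 4 group means (lmFit and eBayes, 19 residual degrees of freedom), with 6 pairwise contrasts and an F-test. Adjusted p are Benjamini-Hochberg values over all 24704 genes, called under 0.05. The fit was tested on simulated data. Genes named in the text are Ecsit, every called member, the 3 members of each class with the smallest F-test p, 8 isoforms, and for each further list its called gene or else that with the smallest F-test p. After their values were seen, 6 members were added, and Atp5h, Atp5k and Ndufa5 for their spread. The members and lists were chosen with earlier results of these data known.

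Replicate numbers did not pair the arrays: deviations from the group means of same-numbered arrays correlated at -0.096 to 0.106 over 33 pairs, 1 of them above 0.1. The alternatives tried were repeated quantile normalization, median centring, a filter at the median level, trend and robust moderation, array weights, the replicate block, separate probe sets, fits of the compared groups alone and leaving out each array. The promoter search used the 8-base core of the NRF1 motif. Python 3.11.15 and matplotlib 3.10.9 drew the figures.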

Additional observations from a re-analysis of the deposited data

Results flagged for a closer look

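Each plasma group was examined for the class means and for each gene described with its values, other than Atp5h, Atp5k and Ndufa5. Of these 204 groups of arrays, 12 held 1 array that stood apart from the rest of its group. Chance alone flags about 1 in 20 groups. Among subunits these were Atp5e in ApoE-Stab2-KO replicate 2 (7.81), Atp5md in wildtype replicate 1 (9.20), Uqcrc1 in ApoE-Stab2-KO replicate 5 (10.27) and Uqcrq in wildtype replicate 4 (8.23). Cox5b (4.19) and Cox5b-ps (10.72) both stood apart in ApoE-Stab1-KO replicate 1, and Ndufa4l2 stood apart in that array (3.20) and in wildtype replicate 3 (3.20). Among genes outside the symbol rule, values that stood apart were those of Cycs in ApoE-Stab1-KO replicate 6 (3.17), Cox11 in ApoE-Stab2-KO replicate 3 (7.07), Pcx in wildtype replicate 1 (7.06) and Mrps24 in ApoE-Stab2-KO replicate 2 (8.71). ApoE-Stab1-KO replicate 1 also lay far from its group in members not examined here. It read 6.99 in Ndufa5 (others 8.04 to 8.49), 9.08 in Atp5k (others 10.00 to 10.53) and 6.02 in Atp5h (others 3.27 to 4.29). Its Ecsit value (5.17) was the lowest of its group, and Ecsit stayed called between the stabilin knockouts without it. Its mean over all 94 members was 7.64, within the 7.59 to 7.65 of its group.

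For Ecsit, the effects of ApoE-Stab2-KO and ApoE-Stab1-KO plasma, each taken against ApoE-KO plasma, differed by 0.53 on the log2 scale; the ApoE-KO arrays cancel from this difference, so its test is that between the stabilin knockouts (adjusted p = 0.00554, limma).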

How the results depend on the processing

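No called difference changed sign under the alternatives run. Values near 0 that were not called did when 1 array was left out: the median over the members ran from -0.0074 to 0.019 for ApoE-Stab1-KO minus ApoE-KO and from -0.025 to 0.0058 for ApoE-Stab1-KO minus wildtype, and Ndufs8 from -0.06 to 0.04 for ApoE-Stab1-KO minus ApoE-KO. The number of members called between ApoE-Stab2-KO and ApoE-Stab1-KO plasma was 1 (Ecsit) in the fit of all arrays and 0 when only the arrays of those groups were fitted; for ApoE-Stab2-KO against wildtype plasma it was 0 and, in that smaller fit, 1 (Uqcr10). The F-test called 1 member with all genes, 2 (Ecsit and Uqcr10) among genes above the median level, 2 with trend and robust moderation and 3 with array weights. Leaving out 1 array at a time gave 1 to 2 calls between the stabilin knockouts, 1 to 3 by the F-test and 0 to 0 in the other 5 comparisons (23 fits each). With the replicate number as a block, the counts stayed at 1 (Ecsit) between the stabilin knockouts, 1 by the F-test and 0 elsewhere; as the numbers do not pair the arrays, this block is no better description of the design. Where 2 groups are fitted alone, the moderation rests on fewer arrays and the spread is that of those groups only. The 13 members below the median value lie near the low end of the scale, where probe background limits what a difference can show. The cause of the changes was not tested.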
